A study of Rattus norvegicus with 8 samples.

Results

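The vesicle trafficking and exocytosis genes described here are 47 rat genes whose symbols match name patterns for SNARE proteins, Rab and Arl GTPases, TBC-domain proteins, adaptor and tethering complexes, sorting nexins, Vps proteins and Sec proteins. They were picked by symbol alone from the 1998 gene IDs that could be paired with a symbol, out of 32623 gene IDs in the count files, so measured values played no role in the rule. The rule also covers Arf GTPases, synaptotagmins, synapsins, COPI subunits, other SNAREs and further genes of the families above. None of those symbols was among the paired IDs, and they were not analysed here. RNA came from retinal ganglion cells (RGCs), the neurons that send the optic nerve, of Sprague Dawley rats at embryonic day 21 (E21), when RGC axons still grow, and at postnatal day 11 (P11). Each stage had 4 libraries from separate litters, with no treatment or altered allele stated. Cells of both stages were purified by immunopanning, in which macrophages were removed on antibody-coated plates and RGCs were then caught by an antibody to the surface protein Thy1. The comparison asks which trafficking genes differ between growing embryonic and maturing postnatal RGCs.

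Vesicle trafficking moves membrane and cargo between the endoplasmic reticulum, the Golgi, endosomes and the cell surface. Coat and adaptor proteins gather cargo and bud a vesicle, Rab and Arl GTPases mark its identity, tethering complexes hold it at its target, and SNARE proteins on both membranes zip together to fuse them. After fusion the ATPase NSF, with its adaptor alpha-SNAP, pulls the spent SNARE complexes apart so that they can be used again. In neurons the same machinery adds membrane to growing axons and releases transmitter at synapses.

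Between 13899299 and 20116017 reads per library were counted on genes, and 3 reads, taken as the floor, correspond to 0.152 to 0.219 CPM (counts per 1000000 effective reads of a library). None of 9 RGC markers could be paired with a gene ID, so the RGC label was not checked against its own markers here. All 4 vascular and mural cell markers (Rgs5, Notch3, Flt1 and Erg) were summed to 3.04 to 4.90 CPM per E21 library and 276 to 548 CPM per P11 library, with Rgs5 at 16 to 35 counts at E21 and 2384 to 5805 counts at P11. Nearly all of the P11 sum came from Rgs5 and Notch3 (mean 232 and 176 CPM), with Flt1 at 3.65 CPM and Erg at 0.322 CPM. Summed over 5 of 5 photoreceptor markers the level was 5.52 to 7.10 CPM at E21 and 22.8 to 36.7 CPM at P11. The 4 of 4 bipolar cell markers summed to 41.4 to 49.0 and 87.3 to 94.5 CPM, and the 2 of 2 amacrine cell markers to 6.29 to 7.30 and 13.3 to 20.97 CPM. These sums follow Prkca (mean 38.3 and 87.5 CPM) and Gad1 (0.856 and 13.8 CPM), whereas the bipolar markers Grm6 (5.97 and 3.37 CPM) and Lhx4 (0.842 and 0.4005 CPM) and the amacrine marker Prox1 (5.97 and 2.63 CPM) were lower at P11. All 3 astrocyte and Müller glia markers together were at 0.669 to 0.861 CPM at E21 and 1.15 to 2.62 CPM at P11, and the 3 microglia and leukocyte markers at 0.201 to 0.472 and 0.134 to 0.952 CPM. The rise of the glia sum came from S100b (mean 0.0294 and 1.64 CPM), whereas Sox9 was lower at P11 (0.623 and 0.354 CPM). No marker was at 0 in every library of both stages, and Gfap, which defines astrocytes, had 0 to 3 counts. The sums of all but the microglia and leukocyte list were apart between the stages, although single markers overlapped or went the other way, and the part of these cells in the results below was not tested.

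Of the 47 genes, 3 passed the test at an adjusted p below 0.01 with a change of more than 1 on the log2 scale, namely Nsf, Stxbp6 and Arl4a. The 250 bases before the start of each of these 3 genes are shown because the study from which the libraries come looked at promoter motifs, CREB sites among them. They were read from RefSeq on the build GRCr8, which is not the Rnor_6.0 build of the count files, and all 3 lie on the minus strand, at chr10:89357384-89357633 for Nsf, chr6:67884339-67884588 for Stxbp6 and chr6:62811298-62811547 for Arl4a. Capitals mark 3 motifs, each searched on both strands so that its reverse complement is marked too. The core of a CREB site has the letters TGACG. An E-box was taken as the palindrome CACGTG. A GC box was taken as the letters GGGCGG, and none of the 3 motifs overlapped another in these sequences.
Nsf: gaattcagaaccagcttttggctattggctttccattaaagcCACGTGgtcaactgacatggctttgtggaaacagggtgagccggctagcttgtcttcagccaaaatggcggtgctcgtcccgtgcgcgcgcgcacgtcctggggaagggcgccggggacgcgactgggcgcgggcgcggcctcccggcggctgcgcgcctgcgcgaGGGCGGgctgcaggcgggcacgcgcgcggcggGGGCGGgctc
Stxbp6: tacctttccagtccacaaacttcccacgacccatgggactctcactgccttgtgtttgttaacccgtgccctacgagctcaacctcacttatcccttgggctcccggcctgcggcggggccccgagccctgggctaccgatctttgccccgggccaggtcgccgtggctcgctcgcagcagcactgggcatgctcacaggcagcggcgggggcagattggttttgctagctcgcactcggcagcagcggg
Arl4a: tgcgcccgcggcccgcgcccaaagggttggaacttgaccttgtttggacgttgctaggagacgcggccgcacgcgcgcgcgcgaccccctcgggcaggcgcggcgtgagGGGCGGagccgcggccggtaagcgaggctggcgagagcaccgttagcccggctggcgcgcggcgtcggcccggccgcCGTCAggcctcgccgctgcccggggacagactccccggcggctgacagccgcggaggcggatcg
The Nsf sequence held 1 E-box, 208 bases before the start, and 2 GC boxes at 42 and 10 bases before it, with a GC content of 69.2%. Arl4a had 1 TGACG core at 64 bases and 1 GC box at 141 bases before the start, with a GC content of 77.2%. In Stxbp6, with a GC content of 64.8%, none of these letters was found in this window.

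A promoter was matched for 45 of the 47 genes, all but Rab36 and Snx29, and Tbc1d32 had 4 promoter entries. The full CREB site TGACGTCA, which contains the TGACG core on both strands, stood in the promoters of 2 of these 45 genes (4.44%), Tbc1d32 and Vps37b, and in 1.59% of all 33469 RefSeq promoter sequences of the same length. Both are printed with the site in capitals, on the minus strand at chr20:36133170-36133201 for Tbc1d32 and on the plus strand at chr12:38220885-38220916 for Vps37b.
Tbc1d32: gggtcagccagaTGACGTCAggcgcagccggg
Vps37b: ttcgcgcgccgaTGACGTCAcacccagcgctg
The TGACG core stood in 15 of the 45 genes (33.3%) and 18.2% of all promoters, the E-box in 11 genes (24.4%) and 5.59%, and the GC box in 30 genes (66.7%) and 30.5%. For each motif the 45 were counted per gene, over any of its promoter entries. The background was counted per promoter entry, whatever the expression or GC content of the gene. These shares are thus unlike measures, and enrichment was not tested. Neither gene with the full site passed both thresholds. Vps37b, an ESCRT-I subunit, had a log2 fold change of 0.39 toward E21, and Tbc1d32, known for a role in cilia, had one of -0.17 with an adjusted p of 0.101 by edgeR.

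Among the trafficking genes, 45 had enough reads for the edgeR fit, and 42 of them did not pass both thresholds. Arl4a was the only one called higher at E21, and Nsf and Stxbp6 were called higher at P11. Over all 14043 genes tested, 8.16% were called higher at E21 and 16.5% higher at P11, against 1 (2.22%) and 2 (4.44%) of the 45 trafficking genes. A further 29 genes had an adjusted p below 0.01 with a smaller change, 16 of them higher at E21 and 13 higher at P11, where the shares over all genes tested were 25.6% and 18.1%. In all, 32 of the 45 (71.1%) had an adjusted p below 0.01, where the share over all genes tested was 68.4%. The libraries of E21 and P11 did not overlap for 33 of the 45 genes (73.3%), 17 with E21 above P11 and 16 the other way, and the share over all genes was 71.3%. The 12 genes whose stages overlapped were Snap29, Stx2, Stx8, Arl6, Rab36, Tbc1d1, Tbc1d32, Ap2m1, Ap3s1, Trappc6b, Vps52 and Vps29. Since whole RGC preparations were sequenced, fewer cells of a type and less RNA per cell cannot be told apart.

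**Figure D1:**
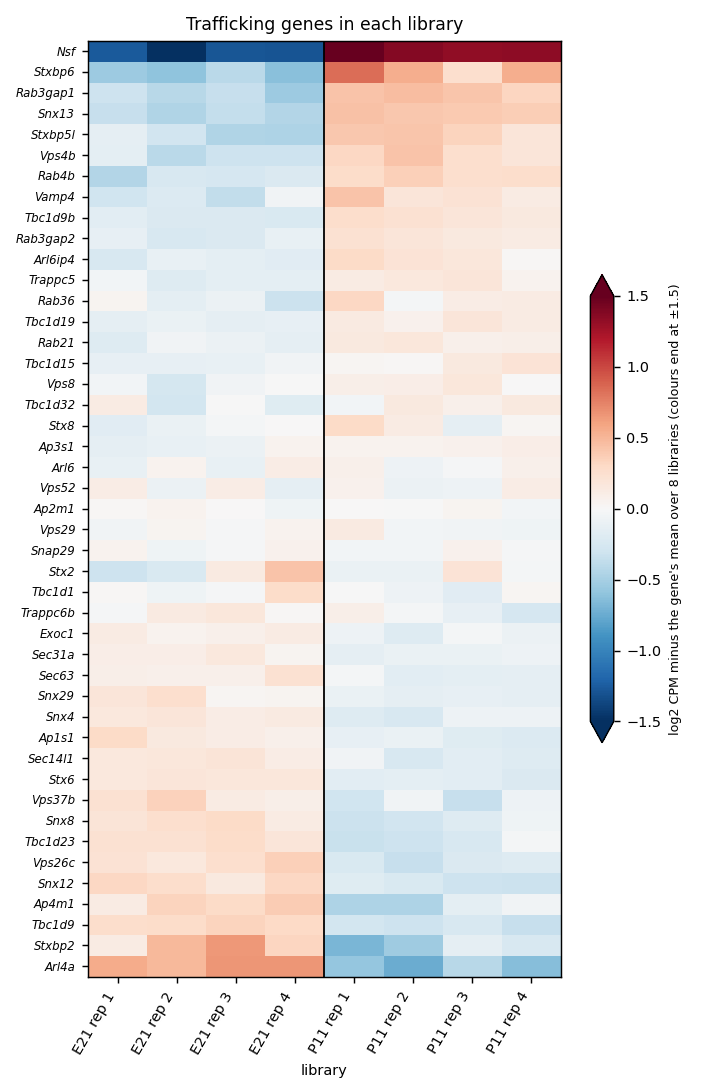
Rows are the 45 trafficking genes tested, columns are the 4 E21 and 4 P11 libraries, and colour is log2 CPM minus the gene's mean over the 8 libraries, with colours ending at 1.5 on either side. Nsf fills the first row with the deepest colours, Arl4a the last, and 33 genes do not overlap between stages while most rows in the middle stay pale.

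Most of the changes were small, which is given here as a description with no test. Their median log2 fold change (E21 over P11) was 0.00, as it was over all genes tested, with 23 values above 0 and 22 below. The median size of the change, whatever its direction, was 0.31 on the log2 scale against 0.49 over all genes. A change within 0.5 on the log2 scale was seen for 33 of the 45 genes (73.3%) and for 50.6% of all genes. Expressed as a fold, 37 genes differed by less than 1.5-fold, 5 by 1.5-fold to 2-fold and 3 by 2-fold or more. Few of these genes are weakly expressed, so the same values were taken at a mean of at least 10 CPM, a bound chosen after the data were seen. There 2 of 43 trafficking genes were called (4.65%) against 17.7% of 9330 genes, and 76.7% against 57.04% lay within 0.5. The replicates were close, with a median relative SD of 5.76% at E21 and 5.63% at P11 over the 45 genes, and no tested gene had fewer than 26 counts in any library.

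**Figure D2:**
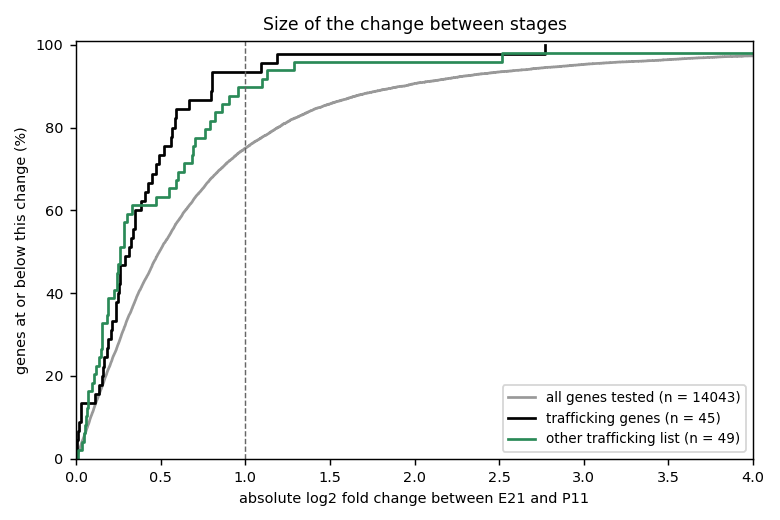
The x axis is the absolute log2 fold change between E21 and P11, shown up to 4, and the y axis is the percentage of genes at or below it, for all 14043 genes tested (grey), the 45 trafficking genes (black) and 49 other trafficking genes (green). The dashed line is the threshold of 1, which 3 of the 45 genes exceed, and the black curve lies above the grey one from about 0.2 on, with 73.3% against 50.6% of genes at 0.5.

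Nsf (ENSRNOG00000003905), the ATPase that takes SNARE complexes apart, had the largest change of the 45 genes. It was at 222, 162, 218 and 215 CPM in E21 replicates 1 to 4 and at 1504, 1377, 1333 and 1347 CPM in P11 replicates 1 to 4. Every P11 library was far above every E21 library, with means of 204 ± 28.3 CPM (SD, n = 4) at E21 and 1390 ± 78.2 CPM (SD, n = 4) at P11. This amounted to a 6.82-fold higher level at P11 (log2 fold change -2.77 with a standard error of 0.10, edgeR quasi-likelihood test, adjusted p = 2.15e-09). Leaving out any 1 library gave log2 fold changes of -2.80 to -2.68. Among the P11 libraries Nsf was highest in replicate 1, as were the amacrine, bipolar and glia marker sums, which follow Gad1, Prkca and S100b. The photoreceptor sum was highest in replicate 3 and the vascular and mural sum in replicate 4. The part of those cells in the Nsf level was not tested. Reads of overlapping genes may add to this value, since neither the annotation release nor a strand setting is given in the sources used here.

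Stxbp6 (ENSRNOG00000004198) encodes amisyn, a protein that binds syntaxin and SNAP-25 without driving fusion. It was weakly expressed, at 2.01, 1.93, 2.20 and 1.90 CPM in the E21 libraries and 5.24, 4.26, 3.49 and 4.25 CPM in the P11 libraries. All P11 libraries lay above all E21 libraries, with P11 replicate 1 the highest. By edgeR the difference was -1.09 on the log2 scale, with a standard error of 0.18 and an adjusted p of 2.81e-05. Without P11 replicate 1 it was -0.99, short of the fold threshold, so the call rests on that library.

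Arl4a (ENSRNOG00000004282), a small Arf-like GTPase that recruits partner proteins to the plasma membrane, changed the other way. Its level was 15.0, 14.3, 16.1 and 16.2 CPM in the E21 libraries and 6.79, 6.10, 7.62 and 6.55 CPM in the P11 libraries. The lowest E21 library was above the highest P11 library by a wide margin. By edgeR the difference was 1.19 on the log2 scale (standard error 0.10, adjusted p = 8.36e-09), and leaving out 1 library gave 1.13 to 1.24. A test against the fold threshold itself (glmTreat) called Nsf but neither Arl4a (adjusted p = 0.0537 by edgeR) nor Stxbp6 (adjusted p = 0.533 by edgeR).

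**Figure D3:**
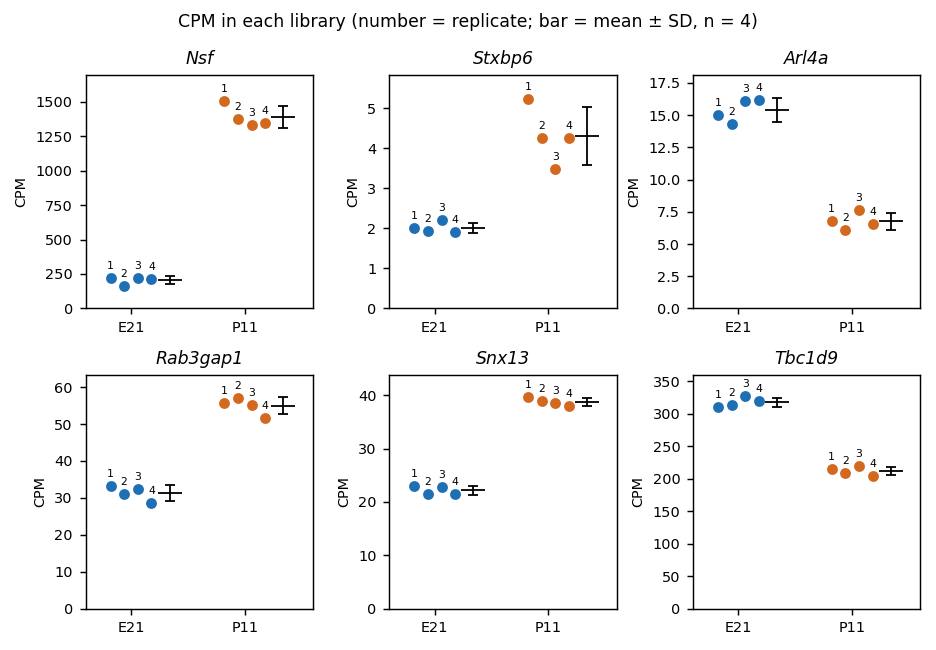
Each panel shows the CPM (y axis, from 0) of 1 gene in the 4 E21 (blue) and 4 P11 (orange) libraries, numbered by replicate, with the mean ± SD beside them. In all 6 genes the stages are fully separated, from 204 against 1390 CPM for Nsf to 22.2 against 38.8 CPM for Snx13.

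SNAREs and their regulators held the largest spread of any role. Of 9 genes, 2 were called higher at P11 (Nsf and Stxbp6), 2 more rose to P11 and 2 to E21 at an adjusted p below 0.01 under the fold threshold, and 3 did not pass. The shares called (22.2%) and with an adjusted p below 0.01 (66.7%) were near those over all genes tested (24.7% and 68.4%). Stxbp5l, or tomosyn-2, which holds SNARE assembly back, was at 25.2 to 31.5 CPM at E21 and 39.4 to 46.2 CPM at P11 (log2 fold change -0.66, adjusted p = 4.57e-07 by edgeR). Vamp4, a SNARE of the trans-Golgi network and endosomes, went from 26.8 to 37.1 CPM on average (-0.47). Stx6, a syntaxin of the same compartments, moved the opposite way, with means of 91.7 ± 0.555 and 72.2 ± 1.59 CPM (SD, n = 4 each, log2 fold change 0.35). Stxbp2, or Munc18-2, was higher at E21 with means of 4.89 and 2.83 CPM (0.80, standard error 0.17, adjusted p = 5.17e-04 by edgeR), a rarer transcript with a wide spread. The plasma membrane syntaxin Stx2 (12.3 and 12.04 CPM), the endosomal Stx8 (19.0 and 21.1 CPM) and the general partner Snap29 (73.7 and 72.7 CPM) overlapped between stages.

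**Figure D4:**
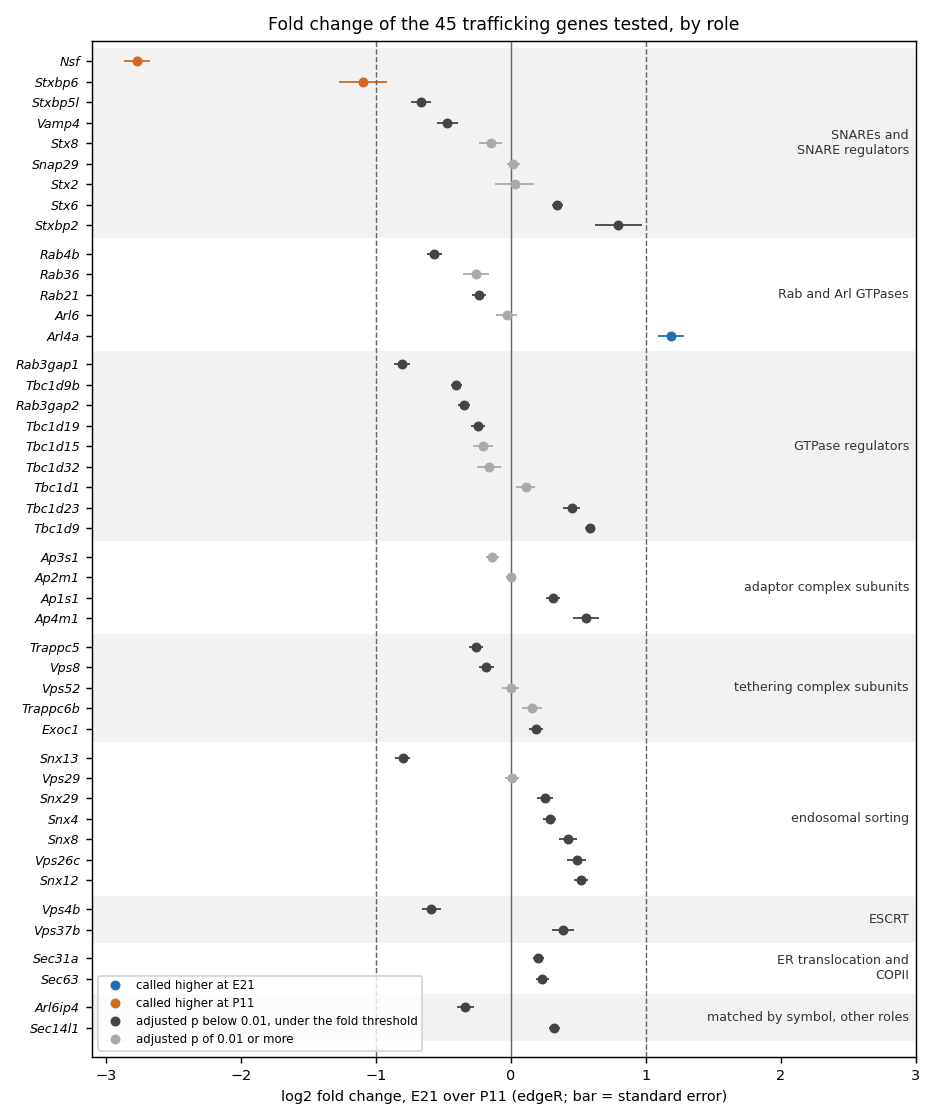
Points are log2 fold changes, E21 over P11 (x axis), of the 45 genes tested, grouped by role, with bars for the standard error and dashed lines at the threshold of 1 on either side. Nsf at -2.77, Stxbp6 at -1.09 and Arl4a at 1.19 are the points beyond the lines. To the right of 0 lie 6 of the 7 endosomal sorting genes, with Vps29 at 0.01 among them, and 7065 of all 14043 genes tested.

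The Rab and Arl GTPases, the switches that label membranes, numbered 6, of which 5 were tested and 1, Arl4a, was called. That was 20% of those tested, where 24.7% of all genes tested were called. Rab4b, a GTPase of recycling endosomes, was at 41.0, 47.2, 46.8 and 47.8 CPM in the E21 libraries and 67.3, 71.1, 66.0 and 66.8 CPM in the P11 libraries. The stages did not overlap (log2 fold change -0.57 with a standard error of 0.05, adjusted p = 6.05e-08 by edgeR). Rab21, which acts on endosomes and integrin traffic, rose from 51.3 to 60.5 CPM (-0.24). Arl6, which brings the BBSome coat to cilia, was at 17.2 and 17.5 CPM, and Rab36 at 12.9 and 15.4 CPM, both with overlapping libraries. Rab44 had 0 to 4 counts in every library and was below the filter, as was the lipid-transfer gene Sec14l5, also at 0 to 4 counts. Two-sided exact permutation tests of their CPM gave p = 0.257 for Rab44 and p = 0.343 for Sec14l5, both 0.343 after adjustment over the 2 tests, where 4 against 4 libraries allow no p under 0.0286. No difference was detectable for either at this depth.

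Of the 9 GTPase regulators none was called, while 4 were higher at P11 and 2 higher at E21 at an adjusted p below 0.01. Over all genes tested 24.7% were called, and 68.4% had an adjusted p below 0.01, against 66.7% of these regulators. The catalytic subunit of the Rab3 GTPase-activating complex, Rab3gap1, was at 33.3, 31.1, 32.5 and 28.5 CPM in the E21 libraries and 55.6, 57.1, 55.2 and 51.7 CPM in the P11 libraries. Every P11 library was above every E21 library (log2 fold change -0.81, standard error 0.06, adjusted p = 1.65e-09 by edgeR). Its partner subunit Rab3gap2 rose from 63.4 ± 2.84 to 80.5 ± 2.52 CPM (SD, n = 4 each, -0.35). Rab3, the target of this complex, marks synaptic and secretory vesicles. The TBC-domain protein Tbc1d9 was at 310, 313, 327 and 319 CPM at E21 and 214, 209, 219 and 204 CPM at P11, with no overlap (0.58, standard error 0.04, adjusted p = 3.94e-10 by edgeR). Its paralog Tbc1d9b changed in the opposite direction, from 166 ± 3.48 to 219 ± 7.89 CPM (SD, n = 4 each, -0.40, adjusted p = 6.96e-08 by edgeR). Tbc1d23, a protein of the trans-Golgi network, was higher at E21 with 63.4 and 46.4 CPM (0.45), and Tbc1d19 slightly higher at P11 (-0.25). Tbc1d1, Tbc1d15 and Tbc1d32 did not pass the test, with log2 fold changes of 0.11, -0.21 and -0.17. The libraries of Tbc1d15 did not overlap, although its adjusted p was 0.0171 by edgeR.

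Adaptor complexes pick cargo for coated vesicles, and 1 small or medium subunit of each of 4 such complexes was among the genes. Ap2m1, the medium subunit of AP-2 that serves endocytosis at the plasma membrane, was at 790, 808, 783 and 744 CPM in the E21 libraries and 783, 777, 804 and 762 CPM in the P11 libraries. The stages overlapped entirely, and the log2 fold change was 0.00 with a standard error of 0.04 (adjusted p = 0.996 by edgeR). Ap1s1 of AP-1 (70.3 and 56.7 CPM, log2 fold change 0.31) and Ap4m1 of AP-4 (21.1 and 14.3 CPM, 0.56), both of the trans-Golgi network, were higher at E21 at an adjusted p below 0.01. Ap3s1 of AP-3 was at 52.8 and 58.0 CPM, with an adjusted p of 0.0222 by edgeR.

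Tethering complexes hold a vesicle at its target membrane, and their 5 subunits here all stayed within 0.26 on the log2 scale. Vps52, a subunit of the GARP and EARP tethers, was at 145, 127, 146 and 123 CPM at E21 and 141, 127, 128 and 146 CPM at P11. These values overlapped, with a log2 fold change of -0.00 and an adjusted p of 0.979 by edgeR. Exoc1 of the exocyst, which tethers secretory vesicles at the plasma membrane, was 1.14-fold higher at E21 (55.8 and 49.1 CPM, adjusted p = 3.07e-03 by edgeR). Trappc5 of the TRAPP complexes (56.2 and 67.1 CPM) and Vps8 of the endosomal CORVET tether (66.4 and 75.2 CPM) were higher at P11 at an adjusted p below 0.01, and Trappc6b (35.2 and 31.7 CPM) did not pass.

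Endosomal sorting genes return cargo from endosomes to the surface or the Golgi. None of the 7 was called, while 5 were higher at E21 and 1 higher at P11 at an adjusted p below 0.01 under the fold threshold, against 25.6% and 18.1% of all genes, and this count over 7 genes was not tested. Sorting nexin Snx4 was at 91.0, 92.1, 87.8 and 89.6 CPM at E21 and 71.5, 68.8, 77.6 and 77.5 CPM at P11, without overlap (log2 fold change 0.29, standard error 0.05, adjusted p = 4.00e-05 by edgeR). Also higher at E21 were Snx12 (0.52), Vps26c (0.49), Snx8 (0.43) and Snx29 (0.25). Snx13, a sorting nexin with a regulator of G protein signalling domain, was the exception, at 23.0, 21.4, 22.8 and 21.6 CPM at E21 and 39.7, 38.9, 38.5 and 38.0 CPM at P11. Its stages were well apart, with a log2 fold change of -0.80, a standard error of 0.06 and an adjusted p of 1.07e-09 by edgeR. Vps29, a subunit common to retromer and retriever, was at 64.2 and 63.9 CPM with overlapping libraries. Snx13, Rab3gap1 and Stxbp2 came closest to the fold threshold among the genes not called.

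The 2 ESCRT genes, of the machinery that buds vesicles into endosomes, moved apart. Vps4b, the ATPase that recycles ESCRT-III, was at 25.2, 21.03, 22.5 and 22.5 CPM at E21 and 34.6, 37.3, 33.2 and 31.6 CPM at P11, all P11 libraries being higher (log2 fold change -0.59, standard error 0.07, adjusted p = 1.04e-06 by edgeR). Vps37b went from 28.4 to 21.7 CPM (0.39, adjusted p = 3.84e-04 by edgeR). At the endoplasmic reticulum, Sec31a of the outer COPII coat was at 161, 160, 167 and 155 CPM at E21 and 137, 140, 140 and 142 CPM at P11, a narrow difference that the libraries did not bridge (0.20, standard error 0.04, adjusted p = 1.40e-04 by edgeR). Sec63 of the translocon was also higher at E21, at 74.0 and 62.9 CPM (0.23). The remaining genes match by symbol only. Sec14l1, a lipid-binding protein, was at 219, 221, 224 and 211 CPM at E21 and 188, 165, 176 and 171 CPM at P11, without overlap (0.32, standard error 0.04, adjusted p = 3.96e-06 by edgeR). Arl6ip4, which is known from RNA splicing, was higher at P11 (-0.34).

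Nsf carried nearly all of the change in the summed reads of the 47 genes, as a description with no test. Together they took 0.352% ± 0.00359 of counted reads at E21 and 0.475% ± 0.00840 at P11 (SD, n = 4 each). The other 46 genes took 0.332% ± 0.00170 at E21 and 0.334% ± 0.00189 at P11, with library ranges of 0.330% to 0.334% and 0.331% to 0.336%. Nsf alone rose from 0.0200% ± 0.00277 to 0.141% ± 0.00705 of counted reads, and from 5.68% ± 0.743 to 29.8% ± 0.958 of the reads of the 47 genes. Shares of reads also depend on gene length, so only their shift between stages is read here.

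Partners of 1 complex or pathway were then set against each other as ratios of CPM within a library, in 5 pairs chosen after the values had been seen. Their absolute value again depends on gene length. Nsf over Napa, which encodes alpha-SNAP, was 1.76 ± 0.281 at E21 and 10.8 ± 0.406 at P11 (SD, n = 4 each), a 6.18-fold shift, since Napa itself was at 116 and 129 CPM (log2 fold change -0.15, adjusted p = 0.0169 by edgeR). The ratio of Tbc1d9 to its paralog Tbc1d9b fell from 1.92 ± 0.0764 to 0.967 ± 0.0364, and that of Stx6 to Vamp4 from 3.44 ± 0.313 to 1.96 ± 0.159. Vps26c over Vps29 went from 0.393 ± 0.0212 to 0.282 ± 0.0222, and Rab3gap1 over Rab3gap2 rose from 0.496 ± 0.0439 to 0.682 ± 0.0214. Since the pairs were picked for genes seen to move apart, these ratios are a description with no test.

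**Figure D5:**
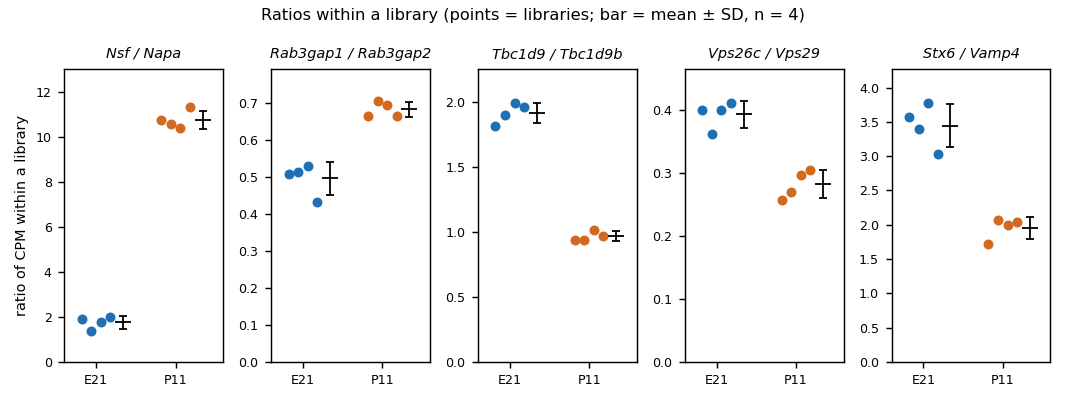
Each panel shows the ratio of CPM of 2 genes within a library (y axis, from 0) in the 4 E21 (blue) and 4 P11 (orange) libraries, with the mean ± SD beside them. The stages are apart in all 5 pairs, most for Nsf over Napa, at 1.36 to 2.01 against 10.4 to 11.3.

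A list of 51 other trafficking genes, also taken from the paired symbols only, covers a part of the rest of the pathway. Of these, 49 were tested and 5 (10.2%) were called, 1 higher at E21 and 4 higher at P11. Over all genes tested 24.7% were called, 8.16% higher at E21 and 16.5% higher at P11. A further 11 of the 49 were higher at E21 and 19 of the 49 higher at P11 at an adjusted p below 0.01 under the fold threshold. The shares over all genes tested were 25.6% and 18.1%, and the split by direction was not tested. The other 14 did not pass, so that 71.4% had an adjusted p below 0.01 against 68.4% of all genes. Their median log2 fold change was -0.15. Hip1, a clathrin- and actin-binding endocytic adaptor, was at 318 to 399 CPM at E21 and 131 to 157 CPM at P11 (1.29, standard error 0.08, adjusted p = 7.22e-08 by edgeR). Of 8 tested genes of regulated release at the synapse 2 were called, a share close to the 24.7% over all genes, and 1 of them was Cplx1, the complexin that clamps and primes SNARE complexes. Cplx1 was at 207 to 232 CPM at E21 and 437 to 529 CPM at P11 (-1.13, standard error 0.06, adjusted p = 2.21e-11 by edgeR). Sytl5, a Rab27 effector, rose from 1.17 to 6.85 CPM (-2.52), with 11.02 CPM in P11 replicate 1 and 4.80 to 6.09 CPM in the other P11 libraries. Under the fold threshold, Rph3a, a Rab3 effector on synaptic vesicles, went from 393 to 695 CPM (-0.82, adjusted p = 2.10e-09 by edgeR). The release genes did not all rise, since 3 of the 8 were higher at E21 and 5 at P11. Of those 3, 2 had an adjusted p below 0.01 under the fold threshold.

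Among 10 tested genes of clathrin coats and endocytosis, the epsin Epn3 was called higher at P11 beside Hip1 at E21. These 2 were 20% of the 10, near the 24.7% called over all genes tested. Epn3 had 2 to 7 counts at E21 and 78 to 106 at P11, with means of 0.235 and 5.36 CPM. It was near the floor at E21. The vascular and mural, photoreceptor, bipolar, amacrine and glia marker sums were higher at P11 as well. Among the P11 libraries Epn3 was highest in replicate 2 (6.27 CPM) and lowest in replicate 4 (4.25 CPM), while the vascular and mural sum was highest in replicate 4. The glia, amacrine and bipolar sums were, like Epn3, lowest in replicate 4 (1.15, 13.3 and 87.3 CPM). The photoreceptor sum was lowest in replicate 1 (22.8 CPM). The part of those cells in these values was not tested. The clathrin heavy chain Cltc, by contrast abundant at both stages, was at 829 to 883 CPM at E21 and 1236 to 1333 CPM at P11 (log2 fold change -0.60). Of 13 tested Rab and Arf regulators, Evi5, a TBC-domain protein of Rab11 traffic, was called higher at P11 (16.1 and 34.3 CPM, -1.10), and its paralog Evi5l stood at 202 and 201 CPM. Evi5 alone was 7.69% of the 13. No gene was called among the 6 fusion and Golgi tethers, the 8 ER and Golgi cargo genes or the 4 endosome and trans-Golgi genes. The share over all genes tested was 24.7%, and these counts over few genes were not tested. Napa, Tmed2 (115 and 104 CPM, 0.15) and Gopc (96.7 and 88.1 CPM, 0.14) each had the highest level in its group. The test against the fold threshold did not call Cplx1 (adjusted p = 0.0230 by edgeR) or Evi5 (adjusted p = 0.212 by edgeR).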

How the data were processed

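HTSeq gene counts from 8 libraries (4 E21, 4 P11) were used as deposited. Per the labels and the methods of the study, the authors depleted ribosomal RNA, prepared SMARTer libraries, and used cutadapt 1.16 and PRINSEQ for trimming and quality control, STAR 2.5.3a for alignment to Rnor_6.0 and HTSeq 0.6.1 for counting, without normalization. The annotation release and strand setting are not given in the sources used here. Records not counted on a gene (51.7% to 58.4%, mostly multi-mapped) were left out, so near-identical gene copies are undercounted. Symbols came from the part of the supplementary gene table at hand.

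All 14043 genes passing filterByExpr were fitted in edgeR 4.0.16 (TMM, robust quasi-likelihood F test, R 4.3.3), with Benjamini-Hochberg adjustment over all of them. A gene was called at an adjusted p below 0.01 and an absolute log2 fold change over 1. Standard errors were taken as the size of the log2 fold change over the root of F, and CPM (counts per 1000000 reads) use effective library sizes. The 2 genes below the filter had exact permutation tests, computed in R. Replicates differed beyond sampling noise (chi-square of 2.76 to 7.66 per degree of freedom). Scripts were tested on simulated data.

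Values in every library are given for genes called, for the most abundant gene of each of 9 roles and for genes with an adjusted p below 0.01 and an absolute log2 fold change over 0.8; all other genes get means, ranges or counts. Of the other list, called genes and the most abundant of each of 6 groups are named; 1 gene that could be on it is not reported here. Genes and lists were chosen with earlier results of these data known. Alternatives were DESeq2 1.42.0, other scalings and filters, a fold-threshold test, a replicate block and leaving out each library. Floors cover counting error only.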

Additional observations from a re-analysis of the deposited data

Results flagged for a closer look

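In 48 groups of 4 libraries, over the 24 genes named by the rule, 4 held 1 library far from the other 3, and chance alone flags about 1 group in 20. Nsf was at 161.7 CPM in E21 replicate 2 and at 215 to 222 CPM in the other E21 libraries. Rab4b was at 41.0 CPM in E21 replicate 1 against 46.8 to 47.8 CPM. Rph3a was at 621 CPM in P11 replicate 4 against 714 to 724 CPM, and Tmed2 at 100.8 CPM in P11 replicate 2 against 104.6 to 105.4 CPM. None of these libraries turns the direction of its gene when left out. Without P11 replicate 2 the adjusted p of Tmed2 by edgeR was 0.0183, against 0.00201 with all libraries, and so no longer below 0.01. Those of Nsf, Rab4b and Rph3a stayed below 0.01 without their flagged libraries.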

How the results depend on the processing

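Over the log2 fold changes of the named genes, 358 values under an alternative kept the direction and the call, 5 lost the call and 20 turned sign, all 20 in Ap2m1, Evi5l and Vps52, which lie near 0. The adjusted p alone crossed 0.01 in 12 of 359 values (the fold-threshold test aside), 6 for Napa, 4 for Tmed2 and 2 for Gopc, none of them called. Ap2m1 was at -0.0058 with DESeq2, -0.012 with its size factors, -0.054 with library-size scaling, -0.048 with upper-quartile factors, -0.037 with at least 10 counts in every library, -0.00022 with no filter and -0.00031 with the replicate block, and -0.024 to 0.030 when a library was left out. Evi5l was at -0.041, -0.035 and -0.024 under library-size scaling, upper-quartile factors and at least 10 counts, and at -0.011 to 0.036 without a library. Vps52 ranged from -0.047 to 0.046 without a library. The median over the 45 genes moved to -0.054 with library-size scaling, -0.048 with upper-quartile factors and -0.037 with at least 10 counts. The median of all genes, 0.004 in the main fit, was -0.050, -0.044 and 0.0097 under the same settings in that order.

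The test against the fold threshold called 0 trafficking genes higher at E21 and 1 higher at P11, and 2 of the other list higher at P11 in place of 4. Those not called had log2 fold changes of -1.09 (Stxbp6), 1.19 (Arl4a), -1.13 (Cplx1) and -1.10 (Evi5). At least 10 counts in every library left 3 of the other list higher at P11, since Epn3 was not tested. Leaving out 1 library gave 1 to 2 trafficking genes higher at P11, the lower count without P11 replicate 1, where Stxbp6 was at -0.99. Agfg2 of the other list, at -0.96, was called with library-size scaling, with upper-quartile factors and without P11 replicate 4. The replicate block called 1 and 2 trafficking genes, the same counts as without it, and 3463 of all genes against 3462. Libraries of the same number share only that number, with deviation correlations of -0.027 to 0.078 over 4 pairs, and 2 of the 4 E21 libraries correlated best with their own number. Requiring 10 counts moved the calls over all genes to 907 higher at E21 and 1523 higher at P11. The number of reads limits the genes near the floor, Rab44, Sec14l5 and Epn3.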
